A study of Mus musculus with 18 samples.

Results

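This report describes 9 genes of microglia and of the complement protein C1q in bulk RNA-seq of the mouse hippocampus. They were the microglial receptors and surface proteins *Cx3cr1*, *P2ry12*, *Tmem119*, *Csf1r* and *Trem2*, the cytoplasmic protein gene *Aif1* and the C1q chain genes *C1qa*, *C1qb* and *C1qc*. The genes were chosen by name as markers of microglia and complement, and all 9 were found among the 15329 genes of the deposited expression table.

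The study asked how loss of *Ccny*, the gene of cyclin Y, and spatial learning change hippocampal gene expression. The 18 libraries fell into 6 groups of 3, made of wild-type (WT) and *Ccny* knockout (KO) C57BL/6J mice aged 8 to 10 weeks. Mice of each genotype were untrained (WT_Basal and KO_Basal), had learned the position of a hidden platform in the Morris water maze (original learning, WT_OL and KO_OL), or had then also learned a new position (reversal learning, WT_RL and KO_RL). The labels name no tissue or driver for the knockout, and name no untrained group that swam without a platform to find, so swimming and learning cannot be told apart in the comparisons of trained with untrained groups. In the study's mapping statistics every untrained library had a lower mapping rate than every WT_RL, KO_OL and KO_RL library. Within WT_OL only library 3 had a rate like those of the other trained groups. Mapping rate thus differed along with training, and its part in the comparisons of trained with untrained groups was not tested. Each group was made of 3 mice, and the libraries were taken as 1 mouse each. Statements below that groups of 3 libraries lay apart or overlapped describe the values. The share of all genes whose groups of 3 lay apart is not given here.

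Microglia are the resident macrophages of the brain, where they survey synapses, take up debris and help to remove synapses. Their survival depends on the receptor CSF1R, their processes follow nucleotides through P2RY12, and neurons hold contact with them through fractalkine and its receptor CX3CR1. In the brain microglia are the main source of C1q, whose A, B and C chains assemble into the molecule that starts the classical complement pathway and that tags synapses for removal.

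Reads recovered from the deposited values and summed over the 15329 listed genes came to 29248557 to 37915576 a library. These are fewer than the reads sequenced or mapped per library in the study. Of the recovered reads, 1 equalled 0.0274 to 0.0333 CPM (the read count of a gene scaled to the size of its library). The 9 genes had between 103 reads (*Aif1*) and 4770 reads (*Csf1r*) in a library. Of 38 other listed microglia genes, 37 were measured, with a summed level of 978 to 1250 CPM, and all 14 listed neuron genes were measured, with a summed level of 11673 to 14148 CPM. Of 16 listed genes of blood leukocytes 2 had a measured level and the other 14 were not analysed here. *Ccny* itself was 107 to 158 CPM in WT and 74.0 to 95.8 CPM in KO libraries, lower in every KO library than in every WT library. Libraries also differed in choroid plexus genes, whose sums are given with the KO comparisons. In bulk tissue fewer microglia and less RNA per microglial cell cannot be told apart.

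The C1q chain genes lie side by side on the minus strand of chromosome 4 (GRCm38), *C1qb* at chr4:136880129-136886187, *C1qc* at chr4:136889804-136893065 and *C1qa* at chr4:136895917-136898803. The promoters of *C1qb* and *C1qc* are shown because they are neighbouring genes of 1 protein complex, and that of *P2ry12* because it had the largest training change of the 9 genes. Promoter windows from RefSeq (GRCm38.p6) ran from 250 bases before to 50 bases after the start of the transcript. They were used here for 6 of the 9 genes, and not for *Tmem119*, *Csf1r* and *C1qa*. The windows are chr4:136886151-136886450, chr4:136892865-136893164 and chr3:59262936-59263235, all on the minus strand and written 5′ to 3′. Capitals mark GAGGAA, the core letters of sites of the macrophage factor PU.1, read on both strands (TTCCTC on the other).
*C1qb*: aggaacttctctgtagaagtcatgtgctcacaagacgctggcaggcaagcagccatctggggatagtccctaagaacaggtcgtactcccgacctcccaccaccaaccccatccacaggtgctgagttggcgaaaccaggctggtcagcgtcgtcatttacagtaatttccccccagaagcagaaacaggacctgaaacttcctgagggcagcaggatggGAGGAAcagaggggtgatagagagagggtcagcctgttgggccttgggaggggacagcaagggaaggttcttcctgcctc
*C1qc*: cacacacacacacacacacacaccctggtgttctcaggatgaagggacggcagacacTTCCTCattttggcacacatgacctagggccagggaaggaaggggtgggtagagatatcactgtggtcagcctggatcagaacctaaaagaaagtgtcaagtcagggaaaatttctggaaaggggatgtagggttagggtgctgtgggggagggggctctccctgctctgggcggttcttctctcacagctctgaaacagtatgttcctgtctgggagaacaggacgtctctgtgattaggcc
*P2ry12*: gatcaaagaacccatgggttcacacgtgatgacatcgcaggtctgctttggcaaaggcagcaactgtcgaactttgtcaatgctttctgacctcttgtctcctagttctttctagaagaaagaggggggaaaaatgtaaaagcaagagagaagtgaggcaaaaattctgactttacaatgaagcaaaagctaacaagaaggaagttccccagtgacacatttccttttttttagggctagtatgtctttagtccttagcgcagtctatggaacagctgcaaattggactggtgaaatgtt
The *C1qb* window held this core once, 30 bases before the start, and the *C1qc* window once, 193 bases before the start. The core was also present in the windows of *Trem2* and *Aif1*, and in 28.3% of the 32851 windows of that length that were used. A match describes letters and says nothing about binding.

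*P2ry12*, the ADP receptor that marks resting microglia, was lower in each trained group than in its untrained group. Its level was 58.1, 62.3 and 60.7 CPM in the WT_Basal libraries and 64.1, 62.5 and 57.1 CPM in the KO_Basal libraries. After original learning it was 41.6, 47.8 and 36.8 CPM in WT_OL and 32, 33.8 and 30.4 CPM in KO_OL. After reversal learning it was 34.2, 35.9 and 32.4 CPM in WT_RL and 31.3, 32.5 and 31.9 CPM in KO_RL. All 12 trained libraries lay below all 6 untrained ones, with the highest trained library at 47.8 CPM and the lowest untrained at 57.1 CPM. Of all 15329 genes 5.77% had this order, and *P2ry12* was the member that did. Within WT_OL the libraries at 41.6 and 47.8 CPM had lower mapping rates than the library at 36.8 CPM. The part of mapping rate in the *P2ry12* levels was not tested.

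On the deposited log2(CPM + 1) scale *P2ry12* fell by 0.52 ± 0.082 (SE) in WT_OL (limma, adjusted p = 0.0015). The change was -0.80 ± 0.082 in WT_RL (limma, adjusted p = 3.32e-05), -0.91 ± 0.082 in KO_OL (adjusted p = 1.22e-05) and -0.92 ± 0.082 in KO_RL (adjusted p = 8.43e-06). Over all genes 5.62% were called lower in WT_OL, 7.42% in WT_RL, 12.3% in KO_OL and 12% in KO_RL, each against the untrained group of its genotype. Leaving out any 1 library kept all 4 calls. *P2ry12* shares exon sequence with *Med12l*, a Mediator subunit gene on the other strand, whose level was 32.8 to 55.1 CPM over the 18 libraries and whose change did not pass the test in any of the 4 comparisons (adjusted p of 0.43, 0.62, 0.83 and 0.94).

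**Figure D1:**
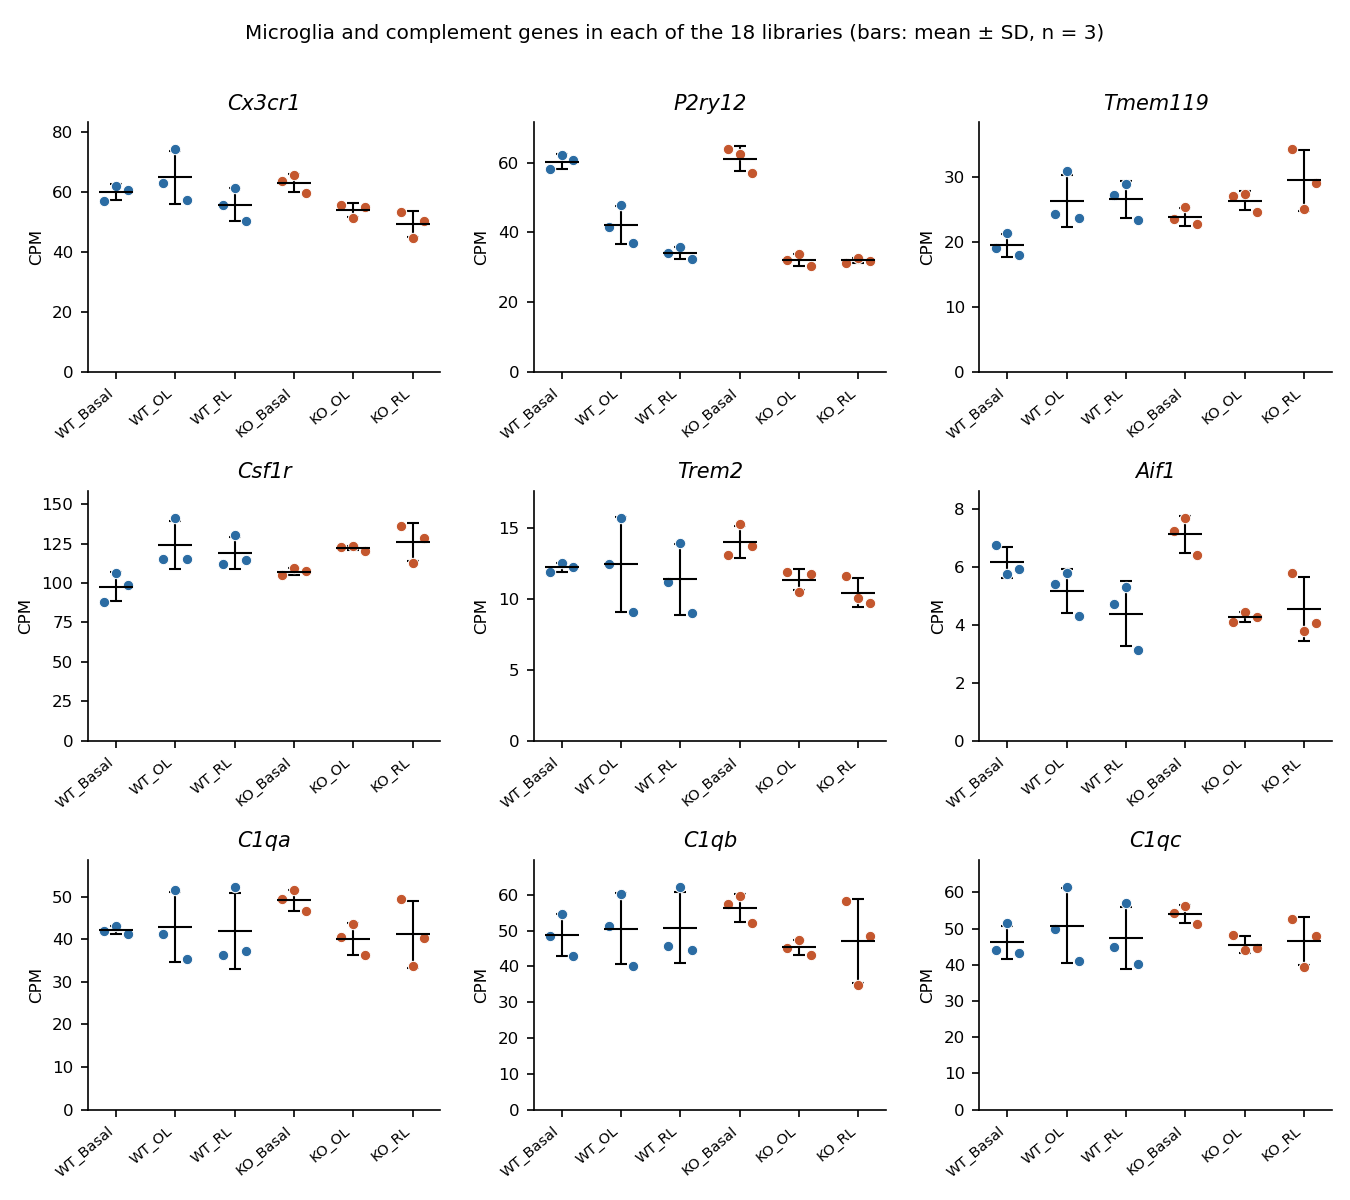
Level in CPM (y axis, from 0) of the 9 genes in each of the 18 libraries, with 1 panel a gene and the 6 groups on the x axis. Blue points are WT and orange points KO libraries, and bars are the mean ± SD of 3 libraries. *P2ry12* was 57.1 to 64.1 CPM in the untrained and 30.4 to 47.8 CPM in the trained libraries, while the C1q chains overlapped between trained and untrained libraries.

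The training comparisons moved with the base composition of the transcripts, across all genes and within the microglia genes. Genes whose longest transcript had under 40% G and C bases had a median log2 change of -0.31 in WT_OL and -0.36 in KO_OL, while those over 60% had a median of 0.20 and 0.15. *P2ry12* had the lowest GC content of the 9 genes, 38.6%, against 50.3% to 59.5% for the others. With the trend on GC content removed from each library, *P2ry12* changed by -0.22 ± 0.11 in WT_OL (limma, adjusted p = 0.34), so that this call was lost. It remained called in WT_RL at -0.50 ± 0.11 (adjusted p = 0.012), in KO_OL at -0.56 ± 0.11 (adjusted p = 0.0041) and in KO_RL at -0.63 ± 0.11 (adjusted p = 0.0019). After this correction 0.907% of all genes were called lower in WT_OL, 2.98% in WT_RL, 7.94% in KO_OL and 9.5% in KO_RL, and 0, 1, 3 and 4 of the 9 members.

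**Figure D2:**
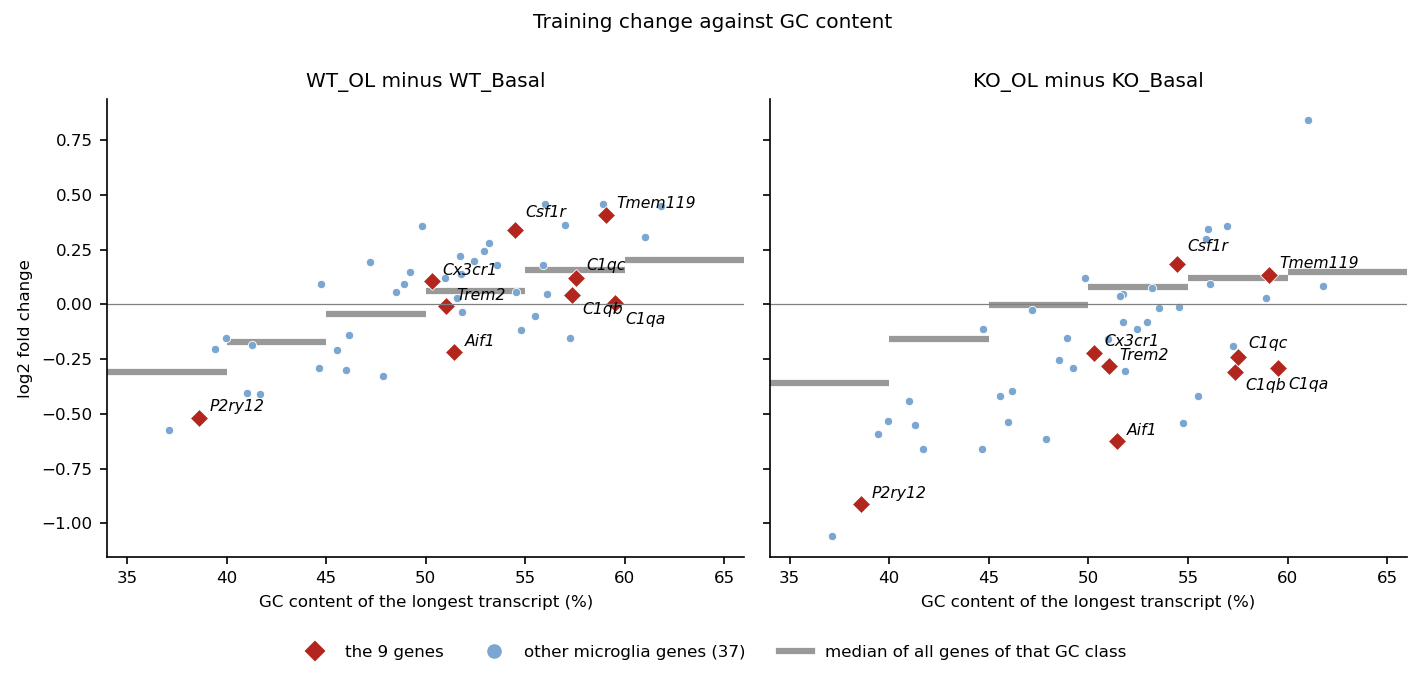
Log2 fold change (y axis) against the GC content of the longest transcript in % (x axis), for original learning against untrained in WT (left) and KO (right). Red diamonds are the 9 genes, blue points 37 other microglia genes and grey bars the median of all genes in each GC class, which ran from -0.31 under 40% to 0.20 over 60% in WT. *P2ry12*, at 38.6%, lay at the bottom left of both panels and below the grey bar of its class.

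*Csf1r*, the receptor for the survival factors CSF1 and IL-34, was higher in the trained groups. Its level was 88.2, 106 and 98.7 CPM in WT_Basal and 105, 109 and 108 CPM in KO_Basal. It was 116, 142 and 116 CPM in WT_OL and 123, 123 and 121 CPM in KO_OL. It was 112, 131 and 115 CPM in WT_RL and 136, 113 and 129 CPM in KO_RL. All 12 trained libraries lay above all 6 untrained ones, an order that 3.48% of all genes had, but the gap was narrow, from 109 to 112 CPM. *Csf1r* rose by 0.34 ± 0.093 in WT_OL (limma, adjusted p = 0.03) and by 0.28 ± 0.093 in WT_RL (adjusted p = 0.047). The changes of 0.19 ± 0.093 in KO_OL (limma, adjusted p = 0.16) and 0.22 ± 0.093 in KO_RL (adjusted p = 0.09) did not pass the test. Its exons overlap those of *Hmgxb3* on the other strand, which rose in all 4 comparisons, by 0.24 to 0.46, and whether reads were counted by strand was not given in the sources used here.

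*Tmem119*, a surface protein by which microglia are told from other macrophages, was also higher after training in WT. Its level was 19, 21.3 and 18 CPM in WT_Basal and 23.5, 25.4 and 22.7 CPM in KO_Basal. It was 24.3, 30.9 and 23.7 CPM in WT_OL and 27, 27.3 and 24.6 CPM in KO_OL. It was 27.2, 29 and 23.3 CPM in WT_RL and 34.3, 25 and 29.1 CPM in KO_RL. The WT_Basal libraries were the 3 lowest of the 18, and the KO_Basal libraries overlapped the trained ones. *Tmem119* rose by 0.41 ± 0.12 in WT_OL (limma, adjusted p = 0.041) and by 0.43 ± 0.12 in WT_RL (adjusted p = 0.024), and its changes of 0.14 ± 0.12 in KO_OL and 0.28 ± 0.12 in KO_RL had adjusted p of 0.43 and 0.095. Over all genes 3.88% were called higher in WT_OL, 8.28% in WT_RL, 11.2% in KO_OL and 11.6% in KO_RL, against 2, 2, 0 and 0 of the 9 members.

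These rises were close to the threshold. The *Tmem119* call in WT_OL was lost in 10 of 18 fits that left out 1 library, among them those without WT_Basal 1 (0.40), WT_Basal 3 (0.36), WT_OL 1 (0.46) and WT_OL 2 (0.29), and that of *Csf1r* was lost without WT_Basal 1 (0.27), WT_Basal 3 (0.35) or WT_OL 2 (0.24). In WT_RL the *Tmem119* call was lost without WT_Basal 1 (0.41), WT_Basal 3 (0.38), WT_RL 1 (0.41) or WT_RL 2 (0.36), and that of *Csf1r* in 13 of 18 fits (0.21 to 0.35). With the GC trend removed none of the 4 calls passed the test (limma, adjusted p of 0.080 to 0.26). The transcripts of *Tmem119* and *Csf1r* have 59.1% and 54.5% G and C bases.

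**Figure D3:**
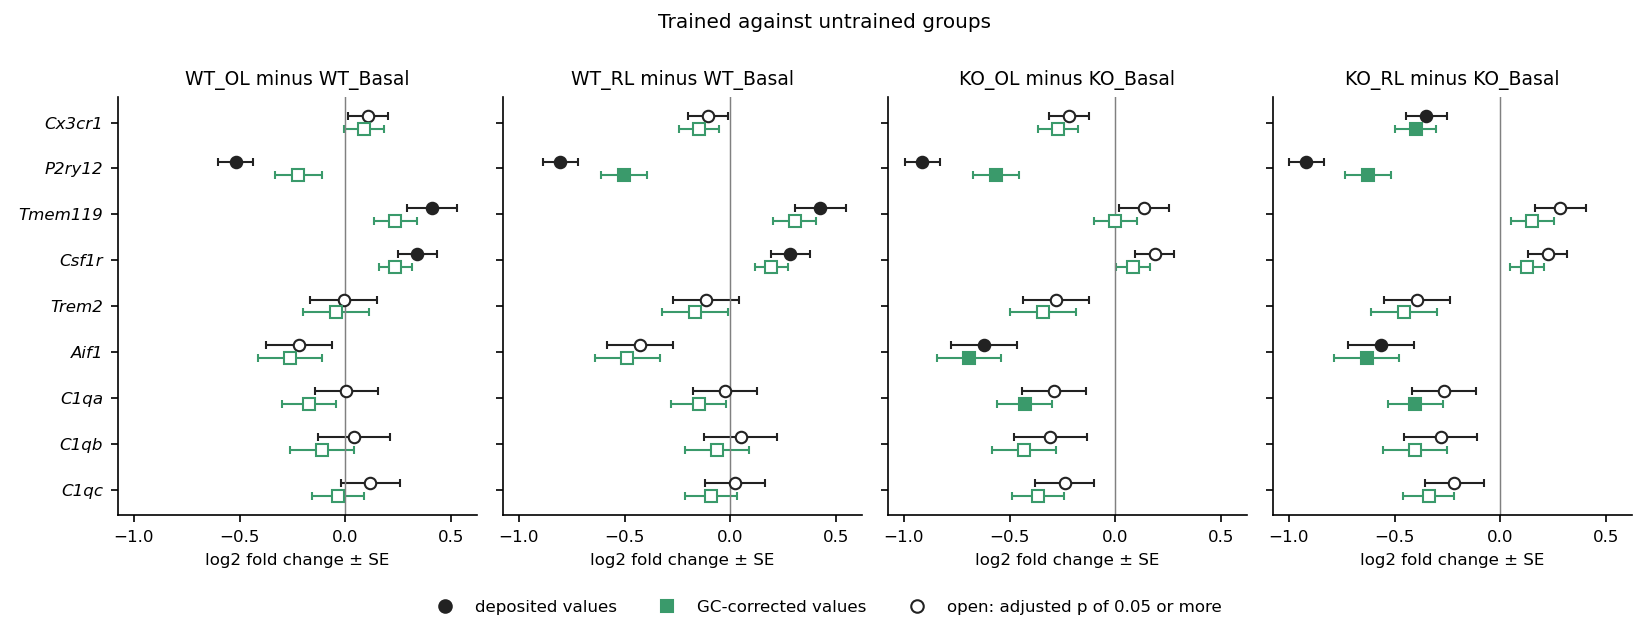
Log2 fold change ± SE (x axis) of the 9 genes in each trained group against the untrained group of its genotype, 1 panel a comparison. Black circles are the deposited and green squares the GC-corrected values, and filled symbols passed an adjusted p of 0.05. *P2ry12* was filled in all but the GC-corrected WT_OL comparison, and *Tmem119* and *Csf1r* were filled in WT with the deposited values and open after the correction.

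*Aif1*, which encodes the calcium-binding protein IBA1 used to stain microglia, and *Cx3cr1*, the fractalkine receptor, were lower after training in KO. *Aif1* was 7.25, 7.69 and 6.41 CPM in KO_Basal, 4.08, 4.45 and 4.26 CPM in KO_OL and 5.79, 3.79 and 4.05 CPM in KO_RL. In WT it was 6.76, 5.76 and 5.92 CPM in WT_Basal, 5.4, 5.78 and 4.31 CPM in WT_OL and 4.72, 5.32 and 3.12 CPM in WT_RL. The trained KO libraries lay below the KO_Basal ones, while WT_OL overlapped WT_Basal and WT_RL lay just below it. *Aif1* fell by 0.62 ± 0.16 in KO_OL (limma, adjusted p = 0.0092) and by 0.56 in KO_RL (adjusted p = 0.016), and the WT changes of -0.22 ± 0.16 in WT_OL and -0.43 ± 0.16 in WT_RL had adjusted p of 0.4 and 0.072. The KO calls were also made with the GC trend removed, at -0.69 and -0.63, and the call in KO_RL was lost without KO_Basal 1 (-0.55), KO_Basal 2 (-0.51), KO_RL 2 (-0.47) or KO_RL 3 (-0.51).

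*Cx3cr1* was 63.5, 65.6 and 59.7 CPM in KO_Basal, 55.6, 51.4 and 54.7 CPM in KO_OL and 53.2, 44.5 and 50.2 CPM in KO_RL. In WT it was 56.8, 62 and 60.4 CPM in WT_Basal, 62.8, 74.3 and 57.2 CPM in WT_OL and 55.6, 61.3 and 50.1 CPM in WT_RL. The KO_Basal libraries lay above the trained KO libraries, and the 3 WT groups overlapped. The gene fell by 0.35 ± 0.10 in KO_RL (limma, adjusted p = 0.015), a call lost without KO_Basal 1 (-0.34), KO_Basal 2 (-0.32) or KO_RL 2 (-0.28). Its changes were -0.22 ± 0.10 in KO_OL (limma, adjusted p = 0.11), 0.11 ± 0.10 in WT_OL and -0.10 ± 0.10 in WT_RL (adjusted p of 0.52 and 0.51). The exons of *Cx3cr1* overlap those of *Gm33858* on the other strand, whose level is not given here. In all, 1 of the 9 genes fell in WT_OL, 1 in WT_RL, 2 in KO_OL and 3 in KO_RL, beside 5.62%, 7.42%, 12.3% and 12% of all genes. The median change of the 9 was 0.041, -0.024, -0.28 and -0.28, beside -0.00025, 0.0015, -0.0073 and -0.0034 over all genes.

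The C1q chains did not pass the limma test in any of the 13 comparisons, nor by voom on recovered reads. *C1qa* was 42, 43.2 and 41.3 CPM in WT_Basal, 41.3, 51.6 and 35.4 CPM in WT_OL and 36.3, 52.4 and 37.4 CPM in WT_RL. It was 49.4, 51.6 and 46.7 CPM in KO_Basal, 40.6, 43.6 and 36.2 CPM in KO_OL and 49.5, 33.8 and 40.3 CPM in KO_RL. The WT groups overlapped, and KO_OL lay below KO_Basal. *C1qb* ranged from 42.9 to 54.7 CPM in WT_Basal, 40.2 to 60.1 CPM in WT_OL, 44.6 to 62.3 CPM in WT_RL, 52.0 to 59.8 CPM in KO_Basal, 43.3 to 47.4 CPM in KO_OL and 34.7 to 58.2 CPM in KO_RL. *C1qc* ranged from 43.3 to 51.5 CPM in WT_Basal, 41.1 to 61.6 CPM in WT_OL, 40.2 to 57.0 CPM in WT_RL, 51.4 to 56.2 CPM in KO_Basal, 44.1 to 48.2 CPM in KO_OL and 39.4 to 52.5 CPM in KO_RL. All 3 chains had their highest mean in KO_Basal and spread most widely among the trained WT and KO_RL libraries.

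In KO_OL against KO_Basal the changes were -0.29 ± 0.15 for *C1qa*, -0.31 ± 0.17 for *C1qb* and -0.24 ± 0.14 for *C1qc* (limma, adjusted p of 0.17, 0.21 and 0.23). In WT_OL they were 0.0054, 0.041 and 0.12, with 95% intervals of -0.31 to 0.32, -0.32 to 0.40 and -0.18 to 0.42. The KO_OL result depended on how the spread was estimated. When KO_Basal and KO_OL alone were fitted, 8 of the 9 genes passed (limma), the 3 chains with adjusted p of 0.018, 0.0084 and 0.017, beside 5289 of all 15329 genes. With libraries weighted by their quality 8 also passed, beside 6446 genes. *Csf1r* was among the 8 in both fits as a rise, of 0.19 and 0.18. With the GC trend removed *C1qa* was called at -0.43 in KO_OL (limma, adjusted p = 0.036) and -0.40 in KO_RL (adjusted p = 0.042), and *C1qb* and *C1qc* were not (adjusted p of 0.052 to 0.077).

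*Trem2*, the lipid receptor that signals through TYROBP, was 11.9, 12.5 and 12.3 CPM in WT_Basal, 12.5, 15.8 and 9.08 CPM in WT_OL and 11.2, 14 and 9.02 CPM in WT_RL. It was 13.1, 15.3 and 13.8 CPM in KO_Basal, 11.9, 10.5 and 11.8 CPM in KO_OL and 11.7, 10 and 9.69 CPM in KO_RL. The WT groups overlapped and the trained KO libraries lay below KO_Basal. Its changes in KO were -0.28 ± 0.16 in KO_OL and -0.39 ± 0.16 in KO_RL (limma, adjusted p of 0.21 and 0.079).

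The C1q chains varied together from library to library, as did other genes, in the list and outside it. Over the 18 libraries Pearson's r of the log2(CPM + 1) values was 0.931 between *C1qa* and *C1qb*, 0.924 between *C1qb* and *C1qc* and 0.897 between *C1qa* and *C1qc* (Spearman's rho of 0.911, 0.928 and 0.831). The permutation p of each Pearson's r was 1e-05, the smallest that 100000 permutations can give, and 9e-05 after adjustment over the 36 pairs of the 9 genes; the p of the rho values was at most 3e-05, and at most 0.00022 adjusted. Without the 2 libraries farthest from the median of the first gene r was 0.906, 0.916 and 0.865, and with the group means removed it was 0.929, 0.931 and 0.890. This was not particular to the chains. *C1qc* lay closer to *Elp5* (r = 0.944), *Rps26* (0.936) and *Mlc1* (0.929) than to *C1qb*, and with the group means removed the highest r among the 36 pairs was that of *Cx3cr1* with *C1qc*, 0.948. The scaling and depth of a library are common to all its genes and differed between libraries, and no batch was named in the labels. The part of scaling and depth in these correlations was not tested.

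**Figure D4:**
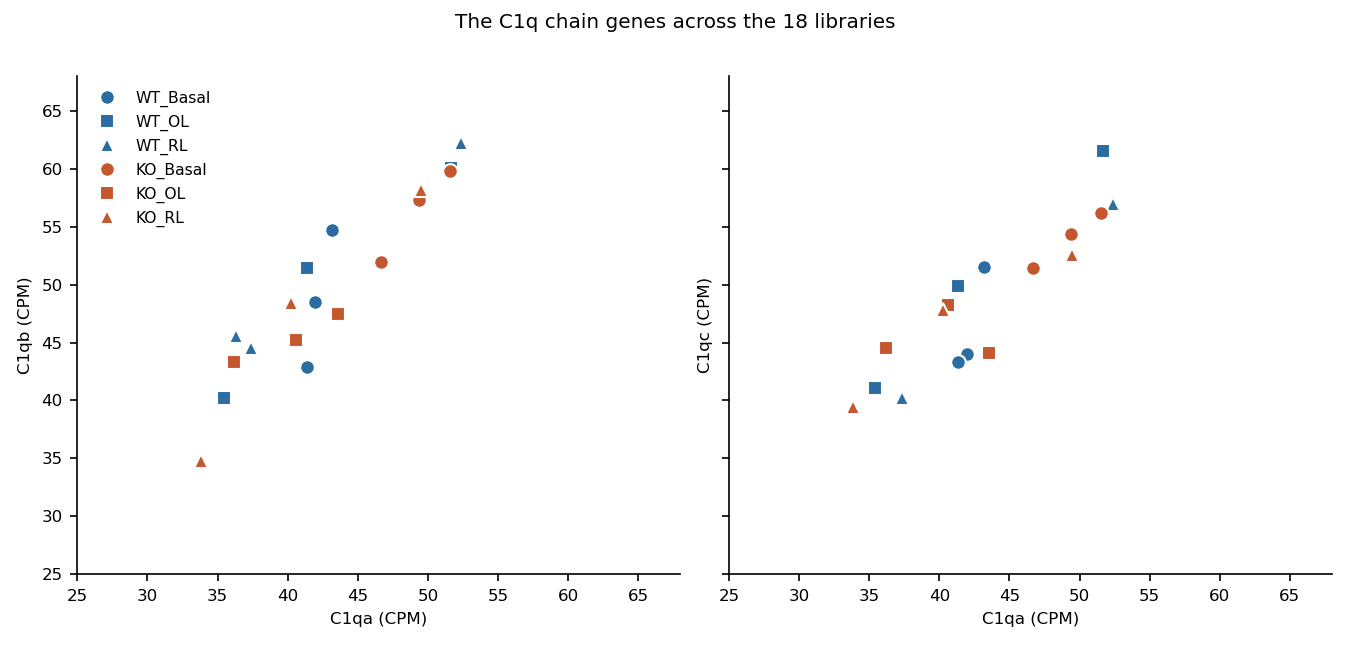
Level of *C1qb* (left) and *C1qc* (right) against *C1qa* in CPM, 1 point a library, with colour for genotype and shape for training. The points run along a rising line in both panels, with Pearson's r of the log2(CPM + 1) values of 0.931 and 0.897. The groups overlap along it, except that *C1qa* in KO_Basal lay above WT_Basal and KO_OL.

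As a description, the genes outside the 9 whose pattern was most like the mean of the 9 over the 18 libraries were *Rpl37a* and *Mlc1* (r = 0.949 each), *Rpsa* (0.940), *Tmem258* (0.937), *Rpl19* (0.934), *Tomm40l* (0.933), *2810428I15Rik* (0.931), *Gabarap* (0.930), *Timm13* (0.929) and *Rps26* (0.926), out of 13969 genes with a mean of at least 1 CPM. *Rpl37a*, *Rpsa*, *Rpl19* and *Rps26* are ribosomal protein genes and *Mlc1* is an astrocyte gene, and none of the 10 was on the microglia lists. With group means removed the r of these genes stayed between 0.936 and 0.967. WT_OL 2 had the highest summed level of the 9 genes, 489 CPM, and KO_RL 2 the lowest, 337 CPM.

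No member passed the test between the genotypes, by limma on the log2 values or by voom on recovered reads. An unadjusted limma p under 0.05 was found for 1, 2 and 0 members in the untrained, original and reversal learning comparisons. Beside these stood 613, 2764 and 756 of all 15329 genes. In untrained mice all 9 genes had a higher mean in KO, with changes from 0.019 for *P2ry12* to 0.28 for *Tmem119* (limma, adjusted p of 0.99 or above), and 0.0196% of all genes were called. The change was also positive for 29 of 37 other microglia and 10 of 12 astrocyte genes. It was positive for 5 of 12 endothelial, 0 of 12 oligodendrocyte and 4 of 14 neuron genes. *Tmem119* came out at 0.28 ± 0.12, with a 95% interval of 0.031 to 0.54, and the KO_Basal libraries lay above the WT_Basal ones. After original learning 8 of the 9 were lower in KO, and 0.0652% of genes were called. The change was also negative for 31 of 37 other microglia, 11 of 12 astrocyte, 12 of 12 endothelial and 12 of 12 oligodendrocyte genes. It was negative for 2 of 14 neuron and 0 of 10 choroid plexus genes. *P2ry12* differed by -0.38 ± 0.082 (limma, adjusted p = 0.097, 95% interval -0.55 to -0.20), with all KO_OL libraries below all WT_OL libraries. The share of all genes apart in this way is not given here. *Cx3cr1* differed by -0.25 ± 0.10 (limma, adjusted p = 0.21). Without WT_OL 3 both passed, at -0.47 (limma, adjusted p = 0.0079) and -0.34 (adjusted p = 0.030). In the study's mapping statistics WT_OL 1 and 2 had lower mapping rates, like the untrained libraries, than WT_OL 3 and the other trained groups. The part of mapping rate in this or the other fits without WT_OL 3 was not tested. After reversal learning the differences ran from -0.17 for *Cx3cr1* to 0.14 for *Tmem119*, and 0% of genes were called. Over the 3 training states together 0.0326% of genes and no member were called.

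**Figure D5:**
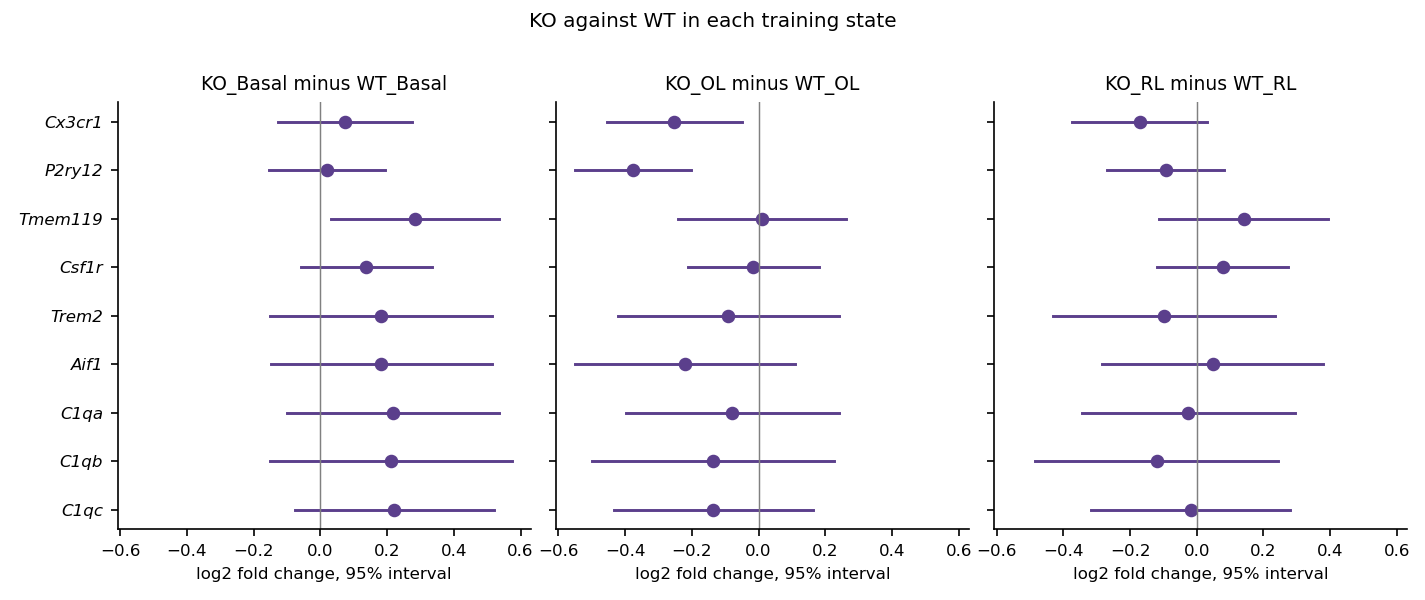
Log2 fold change of KO against WT (x axis) for the 9 genes, with 95% intervals, in untrained libraries (left), after original learning (middle) and after reversal learning (right). The points lie to the right of 0 for all 9 genes in the untrained panel and to the left for 8 of 9 after original learning, and the *P2ry12* interval after original learning runs from -0.55 to -0.20.

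The difference between KO and WT in the training change was negative for all 9 genes, both for original and for reversal learning. These comparisons share the untrained libraries with those above and are not independent of them. The 9 genes also varied together across libraries, so their signs are not separate results. Over all genes the median difference was -0.0054 and -0.0022. The difference in original learning was also negative for 11 of 12 astrocyte and 11 of 12 endothelial genes, and for 3 of 14 neuron genes. In reversal learning these counts were 10, 7 and 7. For original learning the difference was -0.40 ± 0.12 for *P2ry12* (limma, adjusted p = 0.39), -0.33 ± 0.13 for *Cx3cr1* (adjusted p = 0.39) and -0.40 ± 0.22 for *Aif1* (adjusted p = 0.42). The C1q chains lay at -0.30, -0.35 and -0.36. No member and 0% of all genes passed, against 1908 genes and 2 members with an unadjusted p under 0.05. By voom 0 members passed. *P2ry12* passed without WT_OL 3, at -0.49 (limma, adjusted p = 0.035), and 6 members passed with library weights, beside 3902 genes. For reversal learning the differences were between -0.33 and -0.06, and 0% of genes passed there and in the difference between reversal and original learning.

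From original to reversal learning no member was called by limma or voom, beside 0.261% of all genes in WT and 0.0196% in KO. *P2ry12* went from a mean of 42.1 to 34.2 CPM in WT, a change of -0.29 ± 0.082 (limma, adjusted p = 0.15) with no overlap between WT_OL and WT_RL, and from 32.1 to 31.9 CPM in KO. Without WT_OL 3 the WT change passed, at -0.38 (limma, adjusted p = 0.011). Ordered by mean level, *P2ry12* ran from KO_Basal and WT_Basal, which overlapped, through WT_OL and WT_RL, each apart from the one before, to KO_OL and KO_RL, each overlapping the one before. For *Cx3cr1*, *Trem2*, *Aif1* and the 3 C1q chains every pair of neighbouring groups in that order overlapped.

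Some of the other listed microglia genes fell after training and fewer rose. Of 37 measured, 3 fell and 1 rose in WT_OL, 7 fell and 3 rose in WT_RL, 12 fell and 2 rose in KO_OL, and 11 fell and 2 rose in KO_RL, with medians of 0.058, -0.032, -0.15 and -0.17. Of all genes 5.62%, 7.42%, 12.3% and 12% were called lower. *Gpr34*, a lysophosphatidylserine receptor, changed by -0.57 in WT_OL, -0.94 in WT_RL, -1.06 in KO_OL and -1.20 in KO_RL and passed in all 4 (limma, adjusted p of 1.14e-05 to 0.0065). *Hpgds*, a prostaglandin D synthase, changed by -0.41 in WT_OL, -0.66 in WT_RL, -0.66 in KO_OL and -0.71 in KO_RL and also passed in all 4. *P2ry13*, a second ADP receptor, fell in WT_RL (-0.33), KO_OL (-0.66) and KO_RL (-0.65), and *Ly86* in KO_OL (-0.61) and KO_RL (-0.68). *Laptm5*, a lysosomal protein gene of blood-lineage cells, rose in WT_OL (0.46), and *Crybb1* in WT_RL (0.78).

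The genes of the list that fell had a lower median GC content than those that rose. In KO_OL the 12 that fell had a median of 43.2%, with a range of 37.1% to 54.8%. The 2 that rose had a median of 56.5%, and those not called one of 52.4%. In WT_OL the median GC content was 41.0% for the 3 that fell and 56.0% for the 1 that rose. With the GC trend removed, 0 of the 37 were called lower in WT_OL, 2 in WT_RL, 8 in KO_OL and 10 in KO_RL, and *Gpr34* changed by -0.23, -0.58, -0.64 and -0.85. The lineage factors *Spi1* (0.46 in WT_OL and 0.031 in KO_OL) and *Irf8* (0.22 and -0.081) did not pass the test.

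Most ligands and partners of the receptors were not called, nor were most of all genes. Of 17 measured, 1 rose in WT_OL, 2 in WT_RL, 3 in KO_OL and 3 in KO_RL, and 0, 0, 1 and 2 fell. Of all genes 3.88%, 8.28%, 11.2% and 11.6% were called higher and 5.62%, 7.42%, 12.3% and 12% lower. *Cx3cl1*, the neuronal ligand of CX3CR1, rose by 0.48 in KO_OL (limma, adjusted p = 0.0038), by 0.37 in WT_RL and by 0.45 in KO_RL, and was 0.18 in WT_OL (adjusted p = 0.3). *Tyrobp*, the signalling partner of TREM2, fell by 0.54 in KO_OL (limma, adjusted p = 0.033) and by 0.62 in KO_RL. *Cd47*, a signal against engulfment, rose by 0.53 in KO_OL and 0.61 in KO_RL. Of the CSF1R ligands, *Csf1* was 0.022 in WT_OL and 0.017 in KO_OL and did not pass, and *Il34* rose in WT_RL (0.31, limma, adjusted p = 0.048).

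Of 23 listed complement components 11 were measured, and 0 passed in WT_OL and KO_RL. In KO_OL 1 rose and in WT_RL 1 rose, beside 11.2% and 8.28% of all genes called higher. *C1ra*, a protease that C1q activates, rose by 0.35 in KO_OL (limma, adjusted p = 0.036), and *C4b*, the next component, by 0.30 in WT_RL (adjusted p = 0.04). *C3* was 0.41 in WT_OL and 0.64 in KO_OL and did not pass. Of 28 complement receptors and regulators, 2 rose in WT_OL, 4 in WT_RL, 6 in KO_OL and 9 in KO_RL, beside 3.88%, 8.28%, 11.2% and 11.6% of all genes, and 0, 0, 1 and 1 fell. The largest rises were those of the neuronal pentraxin receptor *Nptxr*, at 0.93 in WT_OL, 1.68 in WT_RL, 1.28 in KO_OL and 1.52 in KO_RL, and of *Nptx2*, at 0.57 in WT_OL, 1.02 in WT_RL, 0.85 in KO_OL and 0.94 in KO_RL, both synaptic proteins of neurons.

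Markers of other cells moved between the same groups. The 10 listed choroid plexus genes, with *Ttr*, *Folr1* and *Kl* among them, summed to 222 to 1128 CPM in KO_Basal, 3619 to 6937 CPM in KO_OL and 2086 to 7634 CPM in KO_RL, and 10 of 10 rose in KO_OL and 9 in KO_RL. In WT they summed to 1431 to 6422 CPM in WT_Basal, 3124 to 4879 CPM in WT_OL and 214 to 12644 CPM in WT_RL, and 0 passed. The 11 border macrophage genes summed to 45.3 to 52.4 CPM in WT_Basal, 58.0 to 59.5 CPM in WT_OL, 43.1 to 51.2 CPM in WT_RL, 40.6 to 49.98 CPM in KO_Basal, 39.0 to 43.9 CPM in KO_OL and 50.7 to 56.4 CPM in KO_RL. Of these genes 5 rose in WT_OL, among them *Lyve1* (0.67) and *Pf4* (0.52). In WT_RL 0 rose and 1 fell, in KO_OL 0 passed, and in KO_RL 2 rose. Of all genes 3.88% were called higher in WT_OL, 8.28% in WT_RL, 11.2% in KO_OL and 11.6% in KO_RL, and 7.42% lower in WT_RL. No gene of either list was at 0 in a library. Their part in the changes of the 9 genes was not tested.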

How the data were processed

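Hippocampal RNA was sequenced in 18 libraries, 3 in each of 6 groups taken from the labels. Per the labels and methods, the authors made poly(A) libraries, mapped them to mm10 with STAR 2.5.1, counted reads per gene with STAR, scaled counts with edgeR 3.12.1 and R 3.3.0 (trimmed mean of M-values) and deposited log2 values of CPM for 15329 genes. The methods describe CPM values floored at 1 before the log, but the deposited values fitted log2(CPM + 1), under which 100% of values up to 1000 reads were whole reads (tolerance 0.1 reads), so they were converted back on that scale. The labels name a stranded library kit and the methods a TruSeq RNA kit. The strand setting of the counting was not given in the sources used here. This bears on *Csf1r*, *P2ry12* and *Cx3cr1*, whose exons overlap genes of the other strand.

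Each comparison was fitted with limma 3.58.1 (R 4.3.3; lmFit, eBayes with trend) on the deposited log2 values of all genes and libraries, with 1 mean per group, 12 residual degrees of freedom, two-sided tests and Benjamini-Hochberg adjustment over the 15329 genes, and called at an adjusted p under 0.05. No filter beyond the deposited table was used. The fit was tested on simulated data. Python 3.11.15 and matplotlib 3.10.9 made the tables and figures. GC content came from the longest GENCODE transcript, found for 99.3% of genes, and a loess trend of span 0.3 was removed from each library for the GC correction. The sources give 1 library per sample and no batch. Members and gene lists were chosen with earlier results of these data known, and gene lists serve as descriptions. The genes named from each list and comparison were up to 4 called genes with the largest change, plus *C3*, *C4b*, *C1ra*, *Cx3cl1*, *Csf1*, *Il34*, *Tyrobp*, *Spi1* and *Irf8*, and 1 further gene of this rule is not reported here; *Med12l* and *Hmgxb3* were added because their exons overlap those of members. Alternatives were other log scales (floor of 1 CPM, pseudocount 0.25), a filter at a mean of 1 CPM, quantile normalization, voom on recovered reads, library weights, fits of the compared groups alone, GC correction, a replicate block and leaving out each library.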

Additional observations from a re-analysis of the deposited data

How the results depend on the processing

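The 4 calls of *P2ry12* kept their direction and side of the threshold in all fits that left out 1 library, and were lost in WT_OL with the compared groups alone (limma, adjusted p = 0.076) and with GC correction (adjusted p = 0.34). Members called in WT_OL fell from 3 to 0 with the compared groups alone and to 0 with GC correction, and in WT_RL from 3 to 1 with GC correction. In KO_OL they went from 2 to 8 with the compared groups alone and to 8 with library weights. Library weights also gave 7 instead of 3 in KO_RL, 1 instead of 0 in WT_RL against WT_OL, 3 instead of 0 in KO_OL against WT_OL, 2 instead of 0 in KO against WT over the 3 training states and 6 instead of 0 in the KO minus WT difference in original learning. The weights also raised the count over all genes, from 10 to 6887 in KO_OL against WT_OL, from 1457 to 7038 in WT_OL and from 3600 to 6446 in KO_OL. Fitting the compared groups alone lowered it from 1457 to 74 in WT_OL, and GC correction lowered it to 328; the cause was not tested. GC correction lowered it from 2407 to 1084 in WT_RL and from 3600 to 2265 in KO_OL. Leaving out 1 library gave 1 to 3 members in WT_OL, 1 to 3 in WT_RL, 2 to 3 in KO_OL, 1 to 5 in KO_RL, 0 to 1 in WT_RL against WT_OL, 0 to 2 in KO_OL against WT_OL, 0 to 1 in the KO minus WT difference in original learning and 0 in the other comparisons. Replicate numbers did not pair the libraries, since same-numbered libraries correlated at -0.64 to 0.55 (median -0.023), and a replicate block gave 3, 4, 2 and 3 members in WT_OL, WT_RL, KO_OL and KO_RL and 0 elsewhere. With 103 to 243 reads a library, *Aif1* had the fewest reads of the 9 genes.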

Other observations

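Over all genes 3.88% were called higher and 5.62% lower in WT_OL, 8.28% and 7.42% in WT_RL, 11.2% and 12.3% in KO_OL and 11.6% and 12% in KO_RL, and the counts of the lists here stand beside these shares. Of 26 measured genes linked to a disease-associated state of microglia, 1 rose and 1 fell in WT_OL, 2 rose and 3 fell in WT_RL, 0 rose and 3 fell in KO_OL, and 1 rose and 4 fell in KO_RL. *Ccl6*, a chemokine gene, changed by -0.24 in WT_OL, -0.34 in WT_RL, -0.92 in KO_OL and -0.76 in KO_RL, and passed in all but WT_OL (limma, adjusted p = 0.17). *Fabp5*, a fatty acid carrier, changed by -0.13 in WT_OL, -0.45 in WT_RL, -0.44 in KO_OL and -0.62 in KO_RL and passed in all but WT_OL (adjusted p = 0.5). *Lpl*, the lipoprotein lipase gene, fell in WT_OL (-0.89) and WT_RL (-0.77), and *Gpnmb* rose in WT_RL (0.65) and KO_RL (0.51). Of 19 interferon-response genes, 0 passed in the 2 WT comparisons (limma), and 2 fell in KO_OL and 2 in KO_RL, among them *Ifit2* (-0.47 and -0.39), a count no higher than the share over all genes gives. Of 13 measured inflammatory cytokines and chemokines, 0 fell in WT_OL, 1 in WT_RL, 1 in KO_OL and 1 in KO_RL, and 0 rose. Of 12 astrocyte genes, 4 rose in WT_OL and 4 in WT_RL, with *Slc1a2*, the main glutamate transporter, at 0.61 and 0.56, while in KO_OL and KO_RL 1 rose and 2 fell.

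The genes of C1q-like proteins, among them cerebellins and C1q/TNF-related proteins, had 13 measured members, of which 0 rose, and 0 fell in WT_OL, 0 in WT_RL, 2 in KO_OL and 1 in KO_RL. Oligodendrocyte genes fell in 0 of 12 in WT_OL, 2 in WT_RL, 1 in KO_OL and 2 in KO_RL, and endothelial genes in 0, 1, 3 and 3 of 12, with 1 endothelial gene higher in WT_OL.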
